A study of Mus musculus with 6 samples.

Results

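The thymic stroma was read through 10 genes that mark its 3 main cell types: *Foxn1*, *Krt8*, *Krt5* and *Epcam* for epithelium, *Col1a1*, *Col1a2*, *Col3a1* and *Sparc* for fibroblasts, and *Pecam1* and *Cdh5* for endothelium. They were taken as the probe sets that the platform annotation assigns to exactly 1 of these genes, which gave 17 probe sets for 10 genes among 22626 probe sets and 12393 genes in all. The question was how much stromal RNA came with the thymocytes, in each array and in each group. RNA was taken from thymocytes of 3-week-old C57BL6 mice and hybridized to Affymetrix mouse arrays. The 3 *SCL-LMO1*-labelled arrays came from *Cd3ε*-/- mice that carried an SCL transgene under the Sil promoter and an LMO1 transgene under the Lck promoter. The 3 control-labelled arrays came from *Cd3ε*-/- mice with neither transgene. Both groups therefore lacked *Cd3ε*, which blocks thymocytes at the DN3a stage, the point at which they would test their first T cell receptor chain. The mice were untreated. The labels speak of thymocytes but describe only that the thymus was dissected and kept in buffer until extraction, with no step that separates thymocytes from stroma. It is not stated whether each array holds RNA of a different animal.

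Thymocytes mature inside a scaffold of stromal cells. Epithelial cells of the cortex, marked by keratins 8 and 18, supply Notch ligand and chemokine to immature thymocytes, and epithelial cells of the medulla, marked by keratins 5 and 14, display self antigens to the mature ones. Fibroblasts build the capsule and the collagen framework, and blood vessel endothelium lets progenitors in and mature T cells out. Stromal transcripts in a thymocyte preparation are commonly read as a sign of carried-over stromal cells, with care for those genes that blood cells also express.

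The 22690 deposited values of each array are RMA values on the log2 scale, on which a difference of 1 is a doubling. A probe set passed the low-signal filter where its value reached the array's own 40th percentile in 3 or more of the 6 arrays. RMA values of different probe sets are not comparable with each other, so comparisons below are between arrays, for the same probe set or the same sum of probe sets. In bulk RNA, fewer cells of a type and less RNA per cell cannot be told apart.

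The labels were checked on *Lmo1*, the gene of the LMO1 transgene, which averaged 5.01 ± 0.14 in the *SCL-LMO1*-labelled arrays, below the 6.75 ± 0.10 of the control-labelled arrays (SD, n = 3 each, difference −1.74, limma adjusted p = 0.00161). This goes against the label. The study lists directions for other genes that are also opposite to those obtained here. *Lyl1* is among them, which the study reports as raised by *SCL-LMO1*. It averaged 5.99 ± 0.28 in the *SCL-LMO1*-labelled arrays, against 7.21 ± 0.18 in the control-labelled arrays (SD, n = 3 each). The difference was −1.22 (limma adjusted p = 0.0589). Whether the labels were exchanged was not tested. They are used here as they stand, and the sign of every difference below would turn if they were exchanged. *Tal1*, the gene of SCL itself, ran with the label below the filter, at 4.55, 4.63 and 4.71 in the *SCL-LMO1*-labelled arrays, against 4.35, 4.27 and 4.44 in the control-labelled arrays. The groups did not overlap, and in the fit without the filter its unadjusted p was 0.0415 and its adjusted p 0.643 (limma). *Cd3e* read 8.58 ± 0.06 in the *SCL-LMO1*-labelled arrays, against 8.52 ± 0.18 in the control-labelled arrays (SD, n = 3 each), and the sources used here do not say whether its probe set lies in the deleted part. The bacterial hybridization controls, which are spiked into every sample in the same amount, split the arrays across the labels: *SCL-LMO1* replicate 1 and control replicates 2 and 3 lay between 10.56 and 10.78, and *SCL-LMO1* replicates 2 and 3 and control replicate 1 lay between 9.12 and 9.78. These are called the high and the low hybridization set. These spiked controls averaged 9.68 ± 0.77 in the *SCL-LMO1*-labelled arrays, against 10.44 ± 0.57 in the control-labelled arrays (SD, n = 3 each, exact two-sided permutation p = 0.2, where 0.1 is the smallest that 3 against 3 arrays allow).

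No stromal marker passed the test between the labels. Of the 17 probe sets 9 passed the filter, covering 7 genes, and 0 of these 9 had a limma adjusted p under 0.05, where 0.0508% of all tested probe sets passed in each direction. At an unadjusted p under 0.05, *Epcam* was higher and *Pecam1* lower in the *SCL-LMO1*-labelled arrays, 1 probe set each, against 6.18% of all probe sets higher and 2.67% lower. Only *Pecam1* showed no overlap between the groups, being lower, where 5.82% of all probe sets were lower and 7.36% higher without overlap. The median difference of the 9 probe sets was −0.07, and that of all tested probe sets was −0.000612. Adjusted p-values of the 9 ran between 0.517 and 0.878, and Rank Products, the test of the study, also called 0 of them.

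**Figure D1:**
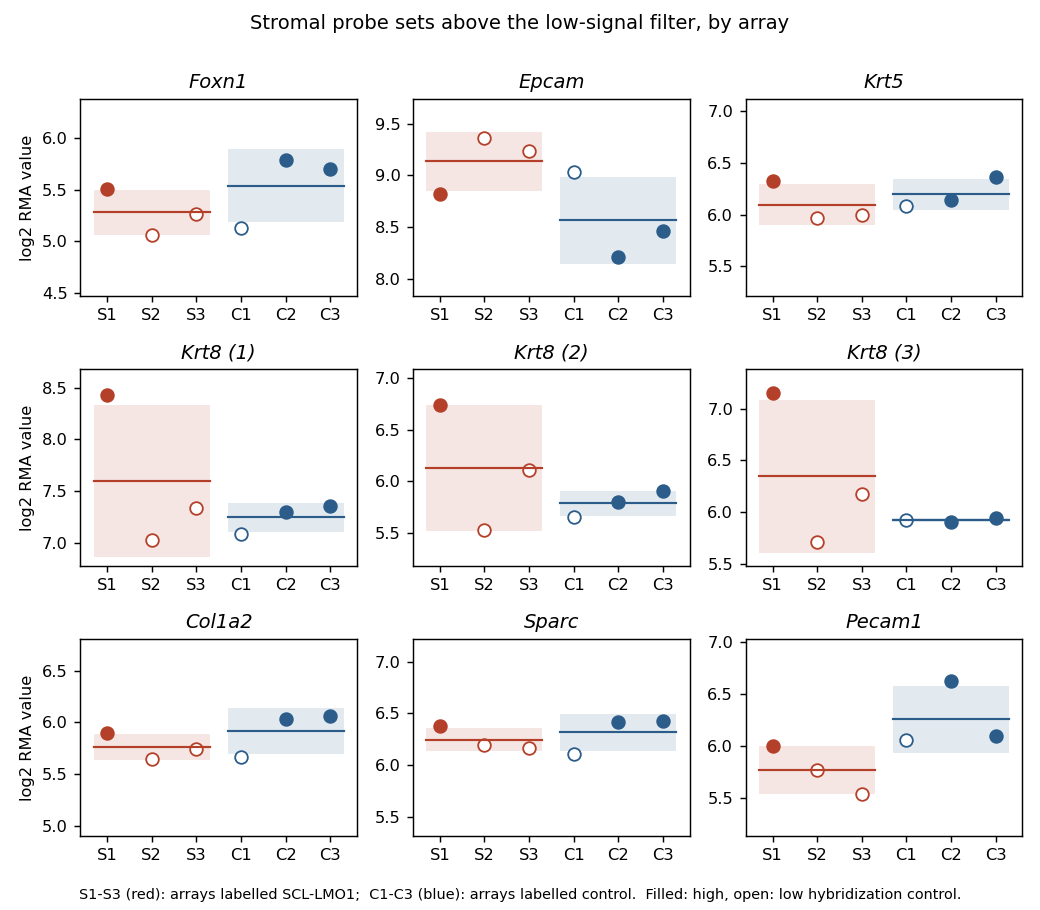
Values of the 9 stromal probe sets that passed the filter (log2 RMA value, the vertical axes span equal ranges), with 1 point per array, labelled *SCL-LMO1* in red on the left and control in blue on the right. Lines are group means, bands are 1 SD (n = 3), and filled points belong to the high hybridization set. *SCL-LMO1* replicate 1 stands above the 5 other arrays in all 3 *Krt8* panels, and the filled points lie above the open ones for *Foxn1*, *Krt5*, *Col1a2* and *Sparc* and below them for *Epcam*.

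The widest ranges among the stromal probe sets were those of *Krt8* and *Epcam*. All 6 epithelial probe sets passed the filter, and their values spanned between 0.40 and 1.45, where the median range of all tested probe sets was 0.58. *Foxn1*, the transcription factor without which thymic epithelium does not form, read 5.51, 5.07 and 5.27 in the *SCL-LMO1*-labelled arrays, against 5.13, 5.79 and 5.70 in the control-labelled arrays. The groups overlapped, since control replicate 1 lay within the range of the *SCL-LMO1*-labelled arrays, and the difference was −0.26 (SE 0.20, limma adjusted p = 0.688). The values sat around the filter, between the 39.5th and the 52.5th percentile of their arrays. Each array of the high set lay above each of the low set, with a difference of 0.51 between the sets. The same order of the sets held for 19.3% of all tested probe sets. The labels differed by −0.24 within the high set and by 0.03 within the low set.

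*Krt8*, the type II keratin of simple epithelia and of the thymic cortex, was measured by 3 probe sets, and all showed the same array apart from the rest. The probe set 1420647_a_at read 8.43, 7.03 and 7.34 in the *SCL-LMO1*-labelled arrays, against 7.08, 7.30 and 7.35 in the control-labelled arrays. The probe set 1435989_x_at read 7.15, 5.71 and 6.17 in the *SCL-LMO1*-labelled arrays, against 5.92, 5.90 and 5.94 in the control-labelled arrays. The probe set 1423691_x_at read 6.74, 5.53 and 6.11 in the *SCL-LMO1*-labelled arrays, against 5.66, 5.80 and 5.90 in the control-labelled arrays. In each, *SCL-LMO1* replicate 1 was highest and *SCL-LMO1* replicate 2 lowest of the 6 arrays, with the control arrays between them, so that the group labelled *SCL-LMO1* spanned the whole range. *SCL-LMO1* replicate 1 exceeded the next array by 1.08, 0.98 and 0.63 for these 3 probe sets. The differences between the labels were 0.35 (SE 0.31), 0.42 (SE 0.31) and 0.34 (SE 0.27), with limma adjusted p-values of 0.711, 0.672 and 0.690. Without *SCL-LMO1* replicate 1 they were −0.06, 0.02 and 0.03, so that the mean difference in *Krt8* rested on this 1 array.

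**Figure D2:**
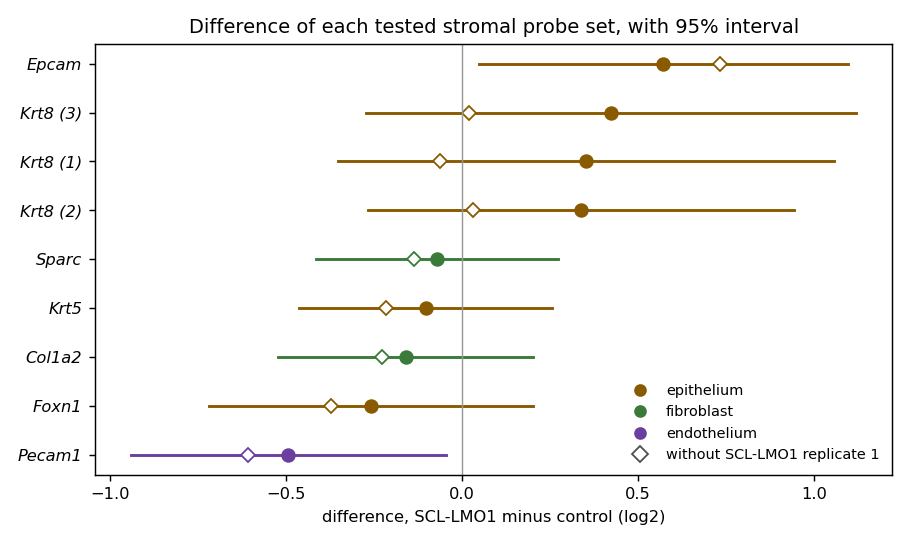
Difference of each tested stromal probe set, labelled *SCL-LMO1* minus control (log2, horizontal axis), with its 95% interval from limma (n = 3 each); open diamonds give the difference without *SCL-LMO1* replicate 1. The diamonds of the 3 *Krt8* probe sets lie between −0.06 and 0.03, while the *Epcam* and *Pecam1* differences were larger without that array, at 0.73 and −0.61.

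The promoter of *Krt8* and that of *Krt18*, its type I partner with which it assembles into filaments, are shown because both genes read highest in the same array, and the genes are neighbours on chromosome 15. The sequences run 5′ to 3′ along the gene and cover 250 bases before and 50 after the start annotated by RefSeq (build GRCm38.p6). Capitals mark matches to the letters TATAAA, and whether a match works as a TATA box was not tested.
Krt8, chr15:102004293-102004592, minus strand: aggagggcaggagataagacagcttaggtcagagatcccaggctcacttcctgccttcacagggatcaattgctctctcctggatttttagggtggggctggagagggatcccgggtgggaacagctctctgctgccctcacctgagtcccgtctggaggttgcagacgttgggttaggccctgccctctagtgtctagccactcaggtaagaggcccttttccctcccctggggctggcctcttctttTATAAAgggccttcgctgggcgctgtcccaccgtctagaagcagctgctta
Krt18, chr15:102027966-102028265, plus strand: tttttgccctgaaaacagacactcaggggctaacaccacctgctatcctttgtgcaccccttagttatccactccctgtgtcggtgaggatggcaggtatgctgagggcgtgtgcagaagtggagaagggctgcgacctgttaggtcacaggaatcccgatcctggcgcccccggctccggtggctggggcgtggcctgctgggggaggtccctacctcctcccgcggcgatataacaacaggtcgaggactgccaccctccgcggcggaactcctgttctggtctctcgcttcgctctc
TATAAA was searched on both strands, and 13.6% of the 32851 promoters of this length in the table hold it. The *Krt8* window holds 1 match on the gene's strand, beginning 1 base before the annotated start, with a further match on the other strand that overlaps it, and the *Krt18* window holds 0. GACGC, the core letters bound by FOXN1, stands in 27.2% of all promoters on either strand and in neither of these windows. Entries were found for 7 of the 10 stromal genes, of which *Krt8* and *Col3a1* hold TATAAA and *Krt5* holds GACGC.

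*Krt5*, a keratin of basal and medullary epithelial cells, did not follow *Krt8*. It read 6.32, 5.97 and 5.997 in the *SCL-LMO1*-labelled arrays, against 6.08, 6.14 and 6.37 in the control-labelled arrays. The groups overlapped, with the highest value in control replicate 3 and *SCL-LMO1* replicate 1 just below it, and the difference was −0.10 (SE 0.16, limma adjusted p = 0.828).

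*Epcam*, a cell adhesion protein of epithelia, gave the largest positive difference of the stromal genes. It read 8.82, 9.36 and 9.23 in the *SCL-LMO1*-labelled arrays, against 9.03, 8.21 and 8.46 in the control-labelled arrays. Control replicate 1 lay above *SCL-LMO1* replicate 1, so the groups overlapped, and the difference was 0.57 (SE 0.23, unadjusted p = 0.0357 and adjusted p = 0.527 from limma). It stood between the 90.3rd and the 95.5th percentile of its arrays, and unlike *Foxn1* it was higher in each array of the low hybridization set than in any of the high set. Within the sets the labels differed by 0.48 and 0.27, for the high and the low set, and with the set as a block the difference was 0.38 (adjusted p = 0.427). It passed in the fit that weighted the arrays by their estimated quality, at 0.87 (adjusted p = 0.0439), where *SCL-LMO1* replicate 2 carried a weight of 4.94 and no other array more than 1.37. *Epcam* was lower in *SCL-LMO1* replicate 1, the array highest in *Krt8*, than in the other arrays of its label. Which cells supplied the *Epcam* signal was not tested.

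The fibroblast genes lay mostly at the floor of the arrays. Of their 8 probe sets 6 were below the filter, between the 3.3rd and the 31st percentile. *Col3a1*, the chain of type III collagen, lay between 2.96 and 3.48 in all arrays with both probe sets. *Col1a1*, a chain of type I collagen, read 4.50, 4.48 and 4.01 with its brighter probe set in the *SCL-LMO1*-labelled arrays, against 4.47, 4.66 and 4.80 in the control-labelled arrays. The range of 0.79 was the widest of the fibroblast probe sets, and *SCL-LMO1* replicate 3 was the lowest array. In the fit without the filter none of these 6 probe sets passed, with limma adjusted p-values between 0.685 and 0.988.

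Both fibroblast probe sets above the filter varied little. *Col1a2*, the second chain of type I collagen, read 5.89, 5.65 and 5.74 in the *SCL-LMO1*-labelled arrays, against 5.67, 6.03 and 6.06 in the control-labelled arrays, with a difference of −0.16 (SE 0.16, limma adjusted p = 0.741). *Sparc*, a matrix protein of fibroblasts that megakaryocytes and platelets also hold, read 6.38, 6.20 and 6.17 in the *SCL-LMO1*-labelled arrays, against 6.11, 6.41 and 6.43 in the control-labelled arrays, with a difference of −0.07 (SE 0.15, adjusted p = 0.878). For both genes control replicate 3 was highest and the groups overlapped, and the arrays of the high hybridization set lay above those of the low set. With the set as a block the differences were −0.06 and 0.01, so that the direction of *Sparc* turned. All 8 fibroblast probe sets had a lower mean in the *SCL-LMO1*-labelled arrays, by between 0.01 and 0.31, and all 8 were highest in control replicate 3. The sign of 2 of the dimmer ones, a *Col1a2* and a *Col3a1* probe set, turned when that array was left out. Control replicate 3 was also the highest array for 2327 of the 8693 tested genes, the most of any array. These genes were above the filter, and the share among dimmer probe sets was not computed. The 40th percentile itself was 5.17, 5.10 and 5.05 in the *SCL-LMO1*-labelled arrays, against 5.09, 5.19 and 5.24 in the control-labelled arrays. It was thus highest in control replicate 3, and the part of this shift in the fibroblast differences was not tested.

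Of the endothelial genes, *Pecam1*, the adhesion molecule CD31 of endothelium, platelets and many leukocytes, was lower in every array labelled *SCL-LMO1*. It read 5.996, 5.76 and 5.54 in the *SCL-LMO1*-labelled arrays, against 6.05, 6.63 and 6.09 in the control-labelled arrays. The highest *SCL-LMO1* value and the lowest control value nearly met, and control replicate 2 stood apart from the rest. The difference was −0.49 (SE 0.20, unadjusted p = 0.0339 and adjusted p = 0.517 from limma), and within the high and the low hybridization set it was −0.36 and −0.40. It was −0.61 without *SCL-LMO1* replicate 1.

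*Cdh5*, the cadherin of endothelial junctions and the marker of this pair that blood cells do not share, was below the filter. Its brighter probe set read 4.88, 4.80 and 4.71 in the *SCL-LMO1*-labelled arrays, against 5.08, 5.23 and 4.87 in the control-labelled arrays, and the groups overlapped by the values of *SCL-LMO1* replicate 1 and control replicate 3 alone. The other probe set lay between 3.49 and 3.95, between the 11.6th and the 17.4th percentile, with a difference of −0.15. All 3 endothelial probe sets had a lower mean in the *SCL-LMO1*-labelled arrays, and only that of *Pecam1* passed the filter. In the fit without the filter neither *Cdh5* probe set passed, at an adjusted p of 0.672 for the brighter one (unadjusted p = 0.0785) and of 0.764 for the other.

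Several stromal probe sets split by hybridization set, as a large share of all tested probe sets did. Of the 9 tested probe sets, 4 (*Foxn1*, *Krt5*, *Col1a2* and *Sparc*) were higher in all arrays of the high set, and *Epcam* was higher in all arrays of the low set. Over all tested probe sets 19.3% were higher and 19.2% lower in the high set without overlap. Since 2 of the 3 high arrays are labelled control, a probe set that reads higher in the high set also tends to a negative difference between the labels. The part of the set in these differences was not tested beyond the fit with the set as a block, in which 0 stromal probe sets passed.

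**Figure D3:**
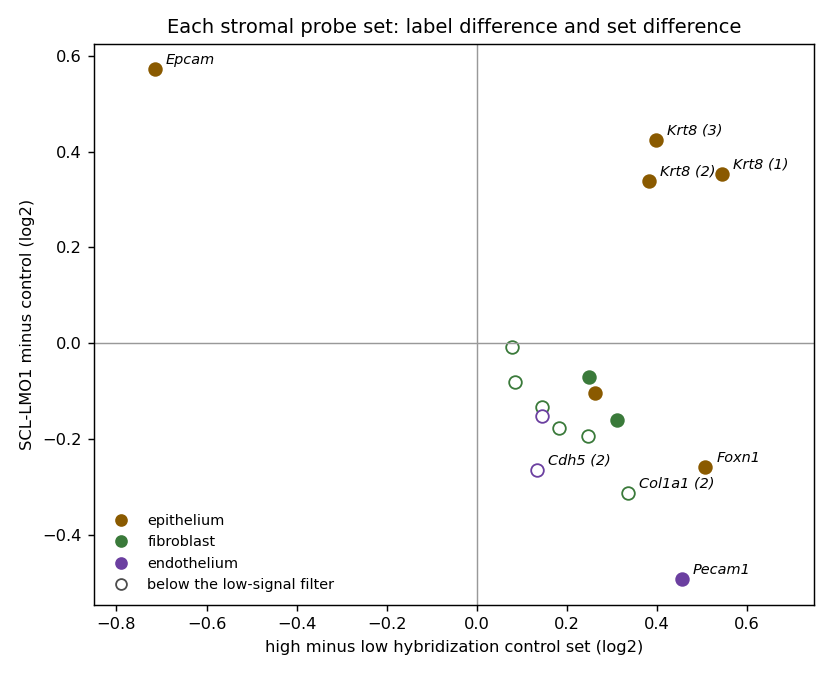
Each of the 17 stromal probe sets by its difference between the hybridization sets (high minus low, log2, horizontal axis) and between the labels (*SCL-LMO1* minus control, log2, vertical axis); open points were below the filter. All but *Epcam* lie right of 0, and 13 of the 17 lie below 0, with *Krt8* the exception on the upper right.

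The array that stood out in *Krt8* was looked at across all probe sets. *SCL-LMO1* replicate 1 exceeded every other array by at least 0.5 in 20 of the 22626 probe sets, or 0.0884%, the second lowest number among the 6 arrays, whose counts ran between 4 and 158. The 3 *Krt8* probe sets ranked 2, 3 and 11 among these 20. *Tbata*, a gene of cortical thymic epithelium, held ranks 1, 5 and 9, and the top-ranked of these probe sets read 6.60 in *SCL-LMO1* replicate 1 against at most 5.07 in any other array. That probe set did not pass the filter. A further *Tbata* probe set, also below the filter, was highest in control replicate 3, at 5.06 against 4.92 in *SCL-LMO1* replicate 1. *Ccl25*, the chemokine by which thymic epithelium attracts progenitors, had rank 4, at 7.28, 6.30 and 6.31 in the *SCL-LMO1*-labelled arrays, against 6.28, 6.01 and 6.21 in the control-labelled arrays. *Krt18* had rank 8, at 7.31, 6.29 and 6.48 in the *SCL-LMO1*-labelled arrays, against 6.52, 6.46 and 6.37 in the control-labelled arrays. The other genes were *Prxl2b* at rank 7, *Cstb*, a cathepsin inhibitor found in many cell types, at ranks 10 and 14, *Dsp*, which encodes the desmosome protein desmoplakin, *Rps15*, a ribosomal protein of all cells, *Tgm2*, a widely expressed transglutaminase, *Pltp*, a lipid transfer protein, *C1qb*, a complement gene of macrophages, and *Ctsl*, the cathepsin with which cortical epithelium prepares the peptides it shows to CD4 T cells. The *Dsp* and *C1qb* probe sets among them did not pass the filter. The 20 probe sets covered 12 named genes, and these were singled out after their values were seen.

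In the list of other thymic epithelial genes, 11 of 22 measured genes passed the filter. Of these 11, 5 (*Prss16*, *Ccl25*, *Krt18*, *Pax1* and *Tbata*) were highest in *SCL-LMO1* replicate 1, an array that was highest for 11.1% of all tested genes. *Pax1* led there by only 0.03. *Ccl25*, *Krt18* and *Tbata* were already singled out above. The list was also chosen with earlier results of these data known, so this count is no independent support. *Prss16*, the thymus-specific serine protease of the cortex, read 6.59, 5.84 and 5.99 in the *SCL-LMO1*-labelled arrays, against 5.78, 5.67 and 6.17 in the control-labelled arrays. *Aire*, which drives self antigen expression in the medulla, read 6.39, 6.15 and 5.91 in the *SCL-LMO1*-labelled arrays, against 5.95, 6.28 and 6.60 in the control-labelled arrays, and *Cldn3*, a medullary claudin, was likewise highest in control replicate 3. *Dll4*, the Notch ligand of cortical epithelium, was also highest in control replicate 3, at 5.56. *Krt14*, *Krt17* and *Krt19* were below the filter. The median difference of the list was 0.17, and −0.19 without *SCL-LMO1* replicate 1, where the median of all tested genes was −0.01 in both.

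**Figure D4:**
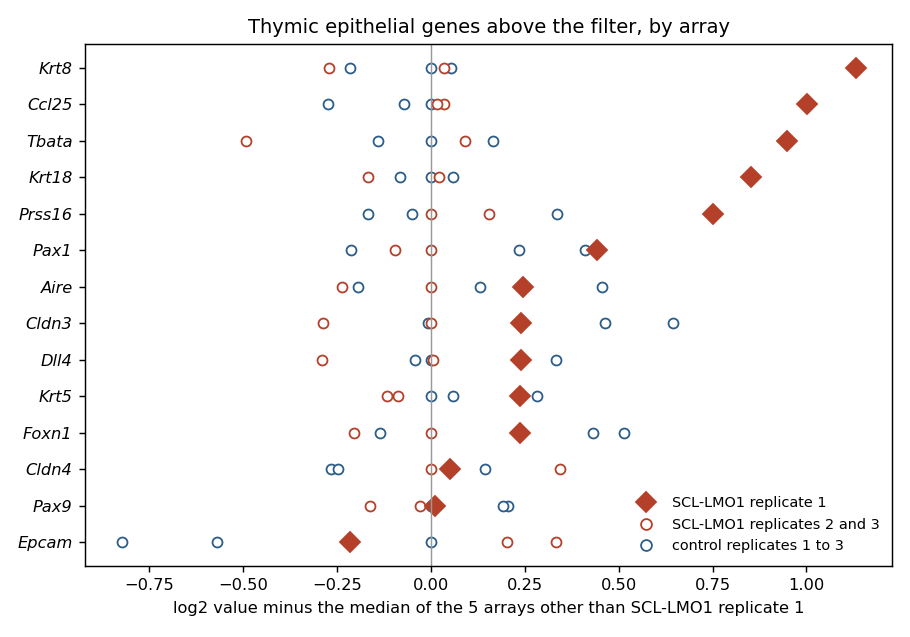
The 4 epithelial markers and 10 other thymic epithelial genes that passed the filter, by array, as the log2 value minus the median of the 5 arrays other than *SCL-LMO1* replicate 1 (*Cdh1*, with a far wider range, is left out). The filled diamond of *SCL-LMO1* replicate 1 lies right of all other points for *Krt8*, *Ccl25*, *Tbata*, *Krt18* and *Prss16*, and among them for *Foxn1*, *Krt5*, *Aire* and *Epcam*.

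Among all 5 lists of other stromal genes, 2 genes passed the gene-level limma test, both higher in the *SCL-LMO1*-labelled arrays, where 0.0805% of all genes passed in each direction. *Cdh1*, the E-cadherin of epithelial junctions, was 1 of 11 tested epithelial genes and read 5.66, 6.45 and 6.86 in the *SCL-LMO1*-labelled arrays, against 4.52, 4.31 and 4.24 in the control-labelled arrays (difference 1.96, SE 0.27, adjusted p = 0.0222). *SCL-LMO1* replicate 1, the array with the most *Krt8*, had the least *Cdh1* of its group, and *Cdh1* no longer passed when replicate 2 or 3 of either label was left out. Whether stroma or thymocytes supplied *Cdh1* was not tested. *Nrp1*, a receptor of VEGF and semaphorins on endothelium that some dendritic and T cells also carry, was 1 of 15 tested endothelial genes and differed by 2.58 (SE 0.15, adjusted p = 5.35e-05). The other 14 endothelial genes did not pass. Of the 15, 12 had a lower mean in the *SCL-LMO1*-labelled arrays, where 51.3% of all tested genes did. *Cldn5*, the claudin of tight endothelium, was among the 12 (−0.25, limma adjusted p = 0.620). Control replicate 3 was the highest array for 9 of the 15, and for 2327 of all 8693 tested genes. *Podxl* differed by −1.24 with 1 probe set (adjusted p = 0.0816) and by −0.06 with the other, and it passed without control replicate 3.

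Of the 15 other fibroblast genes tested none passed, and 13 had a lower mean in the *SCL-LMO1*-labelled arrays, with a median difference of −0.14. *Pdgfrb*, a receptor of fibroblasts and pericytes, read 6.74, 6.83 and 7.20 in the *SCL-LMO1*-labelled arrays, against 8.51, 7.87 and 7.88 in the control-labelled arrays (difference −1.16, SE 0.21, adjusted p = 0.0878), without overlap. With the hybridization set as a block this probe set of *Pdgfrb* passed, differing by −1.32 (limma adjusted p = 0.0181 over all probe sets). The other *Pdgfrb* probe set above the filter did not pass, though its groups did not overlap either. It differed by −0.72 (limma adjusted p = 0.410 over all probe sets), and by −0.86 with the block (adjusted p = 0.136). The matrix genes of the list differed by less, as *Col6a2* (−0.25), *Fn1* (−0.23) and *Bgn* (−0.22) did. The cells that supplied *Pdgfrb* were not tested. None of the 5 mural cell genes and none of the 7 basement membrane genes passed, with median differences of −0.02 and −0.19. All 7 basement membrane genes had a lower mean in the *SCL-LMO1*-labelled arrays, among them *Lama5* (−0.33) and *Col4a1* (−0.21), where 51.3% of all tested genes did. At an unadjusted p under 0.05, 1 of the 15 fibroblast genes, *Pdgfrb*, and none of the mural or basement membrane genes passed, against 6.3% of all tested genes higher and 3.14% lower.

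Summed on the linear scale over the brightest probe set of each gene, the 4 epithelial markers reached between 865 and 921 in the *SCL-LMO1*-labelled arrays, against between 579 and 761 in the control-labelled arrays. These sums did not overlap, and *Epcam* alone supplied between 451 and 659 in the *SCL-LMO1*-labelled arrays, against between 296 and 523 in the control-labelled arrays, ranges that overlap. Without *Epcam* the sums overlapped, at 471, 227 and 264 in the *SCL-LMO1*-labelled arrays, against 239, 283 and 298 in the control-labelled arrays, and *Krt8* supplied 345 of the 471 in *SCL-LMO1* replicate 1. Since RMA values of different probe sets are not comparable, these parts show which probe set weighs most, not which transcript was most abundant. The 4 fibroblast markers summed to between 152 and 176 in the *SCL-LMO1*-labelled arrays, against between 151 and 192 in the control-labelled arrays. The endothelial pair summed to between 72.5 and 93.2 in the *SCL-LMO1*-labelled arrays, against between 97.5 and 137 in the control-labelled arrays. Those sums did not overlap either, and they rest on *Pecam1*, which leukocytes share, and on *Cdh5*, which lay below the filter. How often sums of other genes separate the labels was not computed.

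Among the lists of blood cell markers, neutrophil genes had the largest median difference. Among 13 tested neutrophil genes 9 had a higher mean in the *SCL-LMO1*-labelled arrays, 7 at an unadjusted p under 0.05, where 6.3% of all tested genes were higher, and 0 past the adjusted threshold, with a median difference of 0.88, and their sum ran between 1645 and 3541 in those arrays against between 772 and 1343 in the control-labelled arrays. The most distant was *S100a8*, a calcium-binding protein of neutrophils, with 2.09 (SE 0.34, adjusted p = 0.0598), and it passed when *SCL-LMO1* replicate 2 was left out and when the set was a block, among other fits. Of 10 thymocyte genes 8 had a higher mean in the *SCL-LMO1*-labelled arrays, 3 of them at an unadjusted p under 0.05 (limma). Their sum ran between 15614 and 18148 in those arrays, against between 13421 and 15290 in the control-labelled arrays, without overlap. *Ptcra*, the pre-T cell receptor chain of DN3 cells, passed with 1.28 (SE 0.16, limma adjusted p = 0.0127). It no longer did when *SCL-LMO1* replicate 2, *SCL-LMO1* replicate 3 or control replicate 2 was left out. The study describes *Ptcra* as inhibited by SCL, a direction opposite to the one obtained here with the labels as they stand. Neither the 9 macrophage and dendritic cell genes, nor the 6 megakaryocyte and platelet genes, nor the 5 erythroid genes held a gene that passed, and at an unadjusted p under 0.05 they held 1, 0 and 2. *Pf4*, a platelet chemokine, differed by −0.23, and the sum of the platelet list, cells that also hold PECAM1 and SPARC, ran between 392 and 478 in the *SCL-LMO1*-labelled arrays against between 426 and 510 in the control-labelled arrays. The part of these cells in the stromal values was not tested.

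The genes most like the collagens were looked for among those that varied clearly between the arrays. The mean of the brightest probe sets of *Col1a1*, *Col1a2* and *Col3a1* was 4.59, 4.41 and 4.39 in the *SCL-LMO1*-labelled arrays, against 4.47, 4.63 and 4.78 in the control-labelled arrays, a range of 0.39. Among 1017 genes with a range of at least 1 over the 6 arrays, those with the highest Pearson r to this mean were *Polg*, *Klk7*, *Serpinf1*, *Hbb-b2*, *Rpf2*, *Fgf14*, *Masp1*, *Vtn*, *Pla2g2c* and *Rtp4*, with r between 0.941 and 0.979 over 6 arrays, which share 1 scale of normalization. All 10 were highest in control replicate 3, as the collagen mean was. The range asked for left few stromal genes to compare: 8 of the 53 tested genes of the other stromal lists reached it, and 1 of the 15 fibroblast genes, so that the absence of stromal genes among the 10 shows little.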

How the data were processed

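RNA of thymocytes was hybridized to 6 Affymetrix mouse arrays. The deposited values are log2 numbers, 1 per probe set and array, which the authors computed by RMA in the affy package (version: not given in the sources used here). The authors' own comparison used Rank Products on the probe sets that MAS5 called present in at least 1 condition. The deposited table still holds all 22690 probe sets, of which 64 are Affymetrix controls and were left out.

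By the platform annotation 20393 probe sets have 1 gene, 691 have several and 1606 have none. No stromal probe set shares its annotation with another gene. A probe set was kept where its value reached the array's 40th percentile in 3 or more of the 6 arrays (13776 probe sets). Genes were read by the probe set of highest mean (8693 of 12393 genes). The test was that of limma 3.58.1 in R 4.3.3, without covariates, at a Benjamini-Hochberg adjusted p under 0.05 over all probe sets or genes, and the fit was tested on simulated data. Exact permutation tests used scipy 1.17.1. Array number limits the precision, and p-values measure the spread between arrays, which may be technical. The text names all stromal members, every list gene that passed, up to 4 genes of each other list with the largest difference, and the 10 genes most like the collagens. Other genes, such as those led by 1 array, *Dll4* and the epithelial genes by array, were named after their values were seen. The stromal members and the lists were chosen with earlier results of these data known.

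Alternatives were no filter, a filter at the 60th percentile, a further quantile normalization, median-centred arrays, array weights, a robust variance with trend, the replicate number or the hybridization set as a block, each array left out, an adjusted p under 0.1, genes as means of their probe sets, and Rank Products over 9 array pairs (100 permutations, false positives under 0.1). For *Lmo1* they were run after seeing the data.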

Additional observations from a re-analysis of the deposited data

How the results depend on the processing

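The count of stromal probe sets that passed was 0 under all alternatives apart from array weights, which called 1, *Epcam* (0.87, adjusted p = 0.0439), and at gene level 2, *Epcam* (adjusted p = 0.0258) and *Pecam1* (adjusted p = 0.0415), where the count was otherwise 0. *SCL-LMO1* replicate 2 carried a weight of 4.94 in the fit of probe sets and of 4.96 in that of genes. With 1 array left out, both counts ran from 0 to 0. Of 120 recomputed differences of the tested stromal probe sets, 114 kept their direction and their side of the threshold and 5 turned. None of 56 for probe sets below the filter shifted by more than the SD between replicates, but 3 turned sign: a *Col1a2* probe set to 0.0378 without control replicate 3, and a *Col3a1* probe set to 0.0944 without *SCL-LMO1* replicate 2 and to 0.0715 without control replicate 3. *Krt8* turned to −0.0699, −0.0654 and −0.0044 with array weights, and *Sparc* to 0.0144 with the hybridization set block. With 1 array left out, the brightest *Krt8* probe set gave between −0.0636 (without *SCL-LMO1* replicate 1) and 0.638, and differences lay between 0.39 and 0.80 for *Epcam* and between −0.61 and −0.31 for *Pecam1*.

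All tested probe sets gave 14 calls, against 360 with array weights, 103 by Rank Products, and between 7 and 20 with 1 array left out. Replicate numbers did not pair the arrays (residual correlations −0.63, 0.05 and −0.38); with the replicate block 8 probe sets passed and 0 stromal ones. The 2 calls in the other stromal lists became 1 with the filter at the 60th percentile and with arrays centred on their medians (*Nrp1* in both), 4 with quantile normalization and 4 with array weights (adding *Pdgfrb* and *Podxl* in both), 3 with the hybridization set block (adding *Pdgfrb*), and between 1 and 2 with 1 array left out, *Cdh1* being lost without *SCL-LMO1* replicate 2, *SCL-LMO1* replicate 3, control replicate 2 or control replicate 3, and *Podxl* gained without the last. The 1 call in the blood cell lists became 2 with quantile normalization, 2 with the trend and robust variance, 7 with array weights, 3 with the hybridization set block, and between 0 and 1 with 1 array left out, *Ptcra* being lost without *SCL-LMO1* replicate 2, *SCL-LMO1* replicate 3 or control replicate 2. With the replicate block it was 1, *S100a8* in place of *Ptcra*. *S100a8* also passed with quantile normalization, the trend and robust variance, array weights, the hybridization set block, and without *SCL-LMO1* replicate 2. The causes were not tested. *Lmo1* stayed lower and past the threshold in every limma fit (−1.79 to −1.66).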
